A study of Mus musculus with 333 samples.

Results

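Astrocytes of the hippocampus were set against astrocytes of the visual cortex in wild-type mice at postnatal day 12. The members are the single cells that the submitters labelled Astrocyte in the P12 hippocampus set, 19 cells, and in the P12 visual cortex set, 21 cells, and together they are 40 of the 333 cells of the series and 40 of its 85 cells with that label. Cells were sorted by FACS, the gate being unstated, and captured on the Fluidigm C1, and the polyA RNA of each was amplified with the SMARTer kit. The study's design names 5 mice per stage, but which mouse gave which cell is not labelled. Each region is therefore 1 sample here, no difference was tested, and no p-value is given. The hippocampal cells came from 1 run of cell identifiers apart from cell 9, and the visual cortex cells from another, so region and identifier run cannot be told apart.

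Astrocytes take up glutamate and potassium around synapses, hold water and energy balance, and shape synapses through secreted proteins and phagocytosis. Those of the cerebral cortex and hippocampus descend from radial glia of the dorsal telencephalon, which are patterned by transcription factors such as Pax6, Emx2, Lhx2 and Gli3 and by signals from the cortical midline, chiefly Wnts and BMPs. In the second postnatal week mouse astrocytes are still maturing, and the dentate gyrus of the hippocampus keeps astrocyte-like stem cells for life.

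The libraries of both regions had a like median depth, but several visual cortex cells were shallower than any hippocampal cell. Hippocampal cells held 838990 to 1906191 reads assigned to genes, with a median of 1190863, against 374574 to 2315228 in visual cortex cells, with a median of 1089545. Genes with a read numbered 1023 to 5270 per hippocampal cell (median 3176) and 1660 to 4629 per visual cortex cell (median 3266). Cells of one region were hardly more alike than cells of different regions. The median Pearson correlation between pairs of cells, over 5945 genes on the log2 scale, was 0.235 within the hippocampus, 0.233 within the visual cortex and 0.229 between them.

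Before any gene is described, the cells were checked against their label. The 16 astrocyte markers (Slc1a3, Slc1a2, Gja1, Aqp4 and others) summed to a median of 50738 CPM (a cell's reads of a gene scaled to 1000000 assigned reads) in hippocampal cells and 55308 CPM in visual cortex cells. In 6 cells, hippocampal cells 25, 31 and 53 and visual cortex cells 4, 12 and 58, the sum lay between 6144 and 10482 CPM, while the other 34 cells held 25918 to 113987 CPM. Hippocampal cell 25 carried 6390 CPM of ependymal and choroid plexus markers, and hippocampal cell 53 and visual cortex cell 4 had 19 and 21 cell cycle genes at 10 CPM or more. Markers of another labelled class reached 25% of that class's own median in 3 cells. Hippocampal cell 9, which had the fewest detected genes, carried 13425 CPM of endothelial markers. Only 2 of those 12 markers were at 10 CPM in it, and Itm2a alone held 11579 CPM. Hippocampal cell 62 carried 1335 CPM of neuronal markers, with 2 of 13 at 10 CPM and 1288 CPM from Gad1 alone. Visual cortex cell 24 carried 11465 CPM of microglial markers, with all 12 at 10 CPM. Some of the values below that rest on these cells are given with and without them, and others only with all cells.

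**Figure D1:**
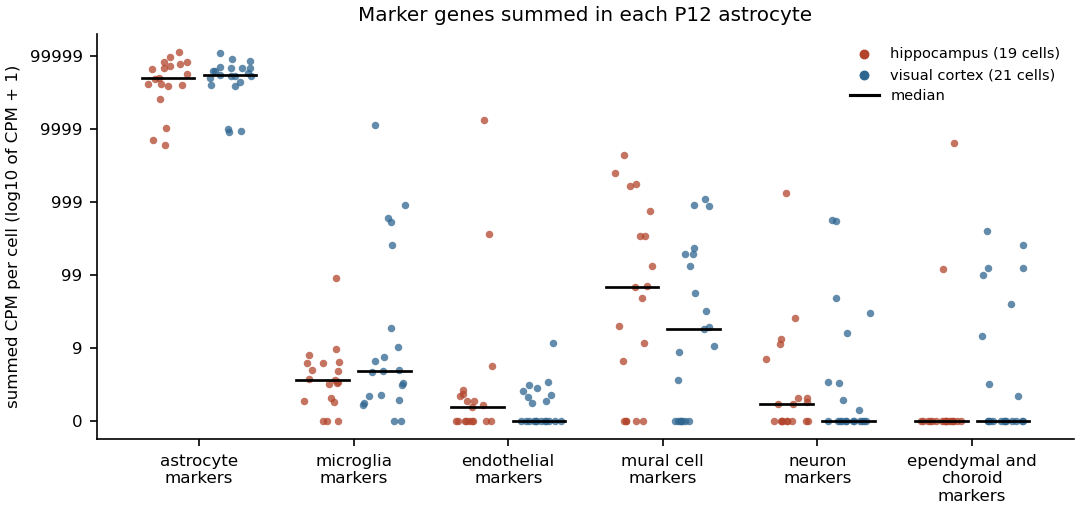
Summed CPM of 6 marker lists in each cell (astrocyte, microglia, endothelial, mural, neuron, ependymal and choroid), on a log10 scale of CPM + 1; each point is 1 cell, each bar a median, and the 19 hippocampal cells stand left of the 21 visual cortex cells. In each region 3 cells, between 6144 and 10482 CPM, lie below the rest for astrocyte markers, and single cells stand apart for endothelial, neuronal and ependymal markers in the hippocampus and for microglial markers in the visual cortex.

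Microglial and endothelial markers were unequal between the regions, with most of the summed level in single cells. The 12 microglial markers summed to at most 91.3 CPM in a hippocampal cell, against 11465 CPM in visual cortex cell 24. In other visual cortex cells they reached at most 919 CPM, with 530, 919, 612 and 255 CPM in cells 12, 33, 46 and 51. The 12 endothelial markers reached 364 CPM in the second highest hippocampal cell and 10.6 CPM in the highest visual cortex cell. Of the microglial markers C1qc and Trem2 had no read in the hippocampus and each had reads in the visual cortex. Of the endothelial markers Ly6a, Abcb1a, Tek and Cdh5 had no read in either region, and Pecam1 had none in the visual cortex. Mural markers summed to 4440 CPM in the highest hippocampal cell and 1120 CPM in the highest visual cortex cell, and medians were 67.2 and 17.4 CPM. Cells were also classed by Xist and Y-linked genes at 10 CPM or more. Xist without a Y-linked gene at that level was found in 5 hippocampal and 10 visual cortex cells. A Y-linked gene without Xist at that level was found in 11 hippocampal and 8 visual cortex cells. Cells with either signal were thus not balanced between the regions. The part of these differences in the genes below was not tested, apart from the values given with cells left out.

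A gene was described by its pooled level, which is its reads summed over the cells of a region divided by the summed reads of those cells, and by the number of cells in which it reached 10 CPM. Of 9069 genes at 10 CPM or more in at least 1 region, 2425 were at least 2-fold higher in the hippocampus, which is 26.7%, and 2959 were at least 2-fold lower, which is 32.6%. The median log2 ratio of all measured genes was -0.19. A shift of that size moved with the scaling: TMM factors changed all ratios by 0.19 and median-of-ratios factors by 0.20, on the log2 scale. A 2-fold difference in pooled level was thus common among these sparse single-cell libraries. Counts of list members below are to be read against the shares of 26.7% and 32.6%. A difference of at least 30 percentage points in the share of cells at 10 CPM was rare: 0.97% of genes (88) were higher by that measure in the hippocampus and 1.06% (96) were lower. The 16 astrocyte markers had 1 member at least 2-fold higher, 0 lower and a median of 0.04. Ranges after a log2 ratio give its lowest and highest value when each of the 40 cells was left out in turn.

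**Figure D2:**
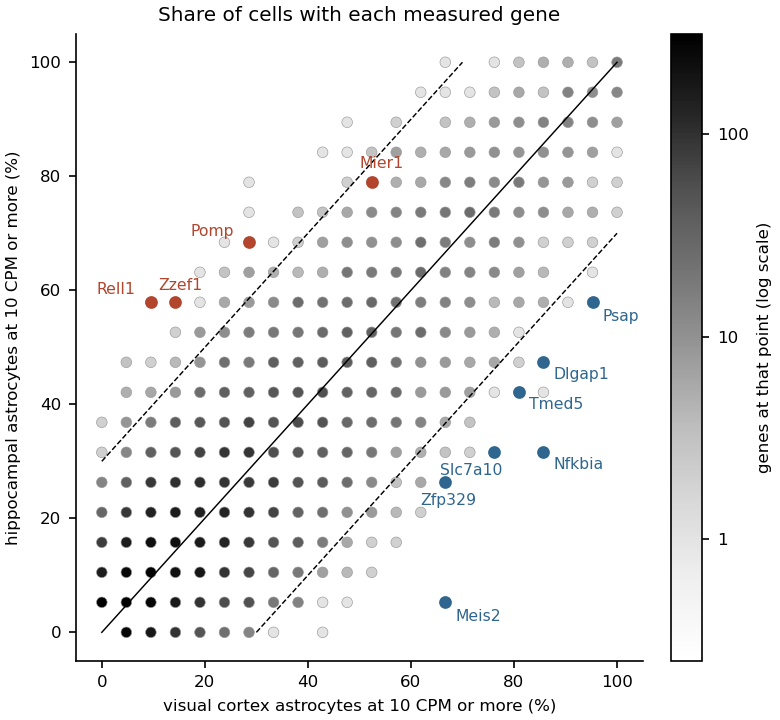
Percent of hippocampal astrocytes (vertical axis) against percent of visual cortex astrocytes (horizontal axis) in which a gene reached 10 CPM, for 9069 genes; shading gives the number of genes at a point on a log scale and the dashed lines mark a difference of 30 points. Meis2, at 5.26% of hippocampal and 66.7% of visual cortex cells, lies farthest from the diagonal.

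The widest difference in the share of cells belonged to Meis2, a homeobox factor of the TALE class that pairs with Hox and Pbx proteins. Meis2 had a lowest, median and highest cell of 0, 0 and 139 CPM in the hippocampus, and of 0, 27.6 and 1460.0 CPM in the visual cortex. Only hippocampal cell 37 was above 10 CPM, while 14 of 21 visual cortex cells were, so the ranges overlapped, and only 4 hippocampal cells held any Meis2 read. In percent this was 5.26 (95% exact binomial interval 0.133 to 26) of hippocampal cells and 66.7 (43 to 85.4) of visual cortex cells, intervals that cover counting error only, as do all intervals of counts here. The pooled level was 7.44 CPM in the hippocampus (95% exact Poisson interval 6.38 to 8.62) and 143 CPM in the visual cortex (138 to 148), a log2 ratio of -4.09 (-6.59 without hippocampal cell 37, -3.64 without visual cortex cell 29). Without the 6 cells low in astrocyte markers the ratio was -4.05, and it was -6.55 among cells with Xist and -3.91 among cells with a Y-linked gene. The 16 astrocytes of the P12 thalamus set lay between the other sets, with 3 cells at 10 CPM.

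Its paralog Meis1 had no read in any of the 19 hippocampal cells. The highest visual cortex cell reached 698 CPM, and 6 of 21 cells were at 10 CPM or more. With the hippocampus set at a floor of 3 reads over the region, the pooled Meis1 level was 1039-fold below the 132 CPM of the visual cortex. That value covers the counting of reads and not the draw of cells. By cells, 0 of 19 still allows a share of up to 17.6%, so the difference can be far smaller. Thalamic astrocytes carried Meis1 at 516 CPM, in 9 of 16 cells. The upstream sequence of Meis1 is shown as that of a transcription factor without a read in 1 of the regions, as RefSeq annotates it on GRCm38.p6 at chr11:19018986-19019219, minus strand, with annotated exons left out. The stretch ends 16 bases before the annotated start.

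Meis1: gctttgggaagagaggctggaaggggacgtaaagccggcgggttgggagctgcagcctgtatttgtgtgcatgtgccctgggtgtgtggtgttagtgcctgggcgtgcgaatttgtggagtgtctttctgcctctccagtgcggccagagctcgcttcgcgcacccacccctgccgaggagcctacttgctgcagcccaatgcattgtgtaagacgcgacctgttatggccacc

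The other patterning factors of the dorsal telencephalon were mostly at lower pooled levels in hippocampal astrocytes. Of 15 such genes 13 were measured. Of these 8 were at least 2-fold lower and 0 at least 2-fold higher, against 32.6% and 26.7% of all genes. The list's median log2 ratio was -1.31 (-1.53 to -1.0). Without the 6 cells low in astrocyte markers 5 of 11 measured members were lower and 1 was higher, and the median was -0.65. Among cells with Xist the median was 0.16, so the list's direction depended on which cells entered. Pax6, a paired-box factor of cortical radial glia, had 0, 0.652 and 184 CPM in the lowest, median and highest hippocampal cell, and 0, 37.1 and 1120 CPM in the visual cortex cells. It reached 10 CPM in 8 hippocampal and 14 visual cortex cells, with overlapping ranges and a log2 ratio of -2.50 (-3.09 to -2.07). Nr2f1, a nuclear receptor of the caudal cortex, was at 10 CPM in 11 hippocampal and 18 visual cortex cells, yet its pooled log2 ratio was -0.11 (-0.33 to 0.22), with highest cells of 874 and 724 CPM.

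Factors linked to the medial pallium, from which the hippocampus forms, differed in direction among themselves. Of 9 measured members 4 were at least 2-fold higher (Zic1, Zic4, Zic5 and Lef1) and 3 at least 2-fold lower (Meis1, Meis2 and Lhx9). Over all genes the shares were 26.7% higher and 32.6% lower. Lhx9 had reads only in visual cortex cells 12 and 58, at 229 and 9.23 CPM, both low in astrocyte markers. Without the 6 cells low in astrocyte markers 3 of 7 measured members were higher and 2 lower. Lef1, a Wnt effector needed for the hippocampal primordium, had hippocampal cells up to 686 CPM and visual cortex cells up to 176 CPM. It was at 10 CPM in 6 hippocampal and 2 visual cortex cells, for a log2 ratio of 1.92 (0.81 to 3.45), and the median cell of both regions held no read. Prox1, a homeobox factor of dentate granule cells, was at 10 CPM in 7 hippocampal and 3 visual cortex cells. Its log2 ratio was 0.99 with all cells, -0.51 without hippocampal cell 31 and 5.13 without the 6 cells low in astrocyte markers. The direction and size of the Prox1 ratio thus depended on which cells entered. Zbtb20, a repressor that specifies hippocampal fields and is also strong in astrocytes, was at 10 CPM in 17 hippocampal and 19 visual cortex cells, with medians of 1431 and 718 CPM and a pooled log2 ratio of 0.15 (-0.01 to 0.54).

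General astroglial factors were mostly within 2-fold, with 3 of 19 measured genes at least 2-fold higher, 2 lower and a median log2 ratio of -0.16. Nfia, which switches progenitors to glial fate, was found in all 40 cells. Hippocampal cells held 291, 2139 and 7168 CPM of it (lowest, median, highest), and visual cortex cells 355, 1387 and 3502 CPM, with ranges that overlapped widely. Nfic of the same family was at 10 CPM in 5 hippocampal and 12 visual cortex cells and had a log2 ratio of -2.10 (-3.13 to -1.80). Dbx2, a homeobox factor of neural progenitors, went the other way, with 12 hippocampal and 6 visual cortex cells at 10 CPM and a ratio of 1.16 (0.63 to 1.70), which was -0.17 among cells with a Y-linked gene. Id4, an inhibitor of basic helix-loop-helix factors, was at 10 CPM in 10 hippocampal and 5 visual cortex cells, and its ratio was 1.17 (0.79 to 2.40). The E-protein Tcf4, found in every cell, had medians of 1704 CPM in hippocampal and 785 CPM in visual cortex cells and a pooled ratio of 0.52 (0.41 to 0.71).

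**Figure D3:**
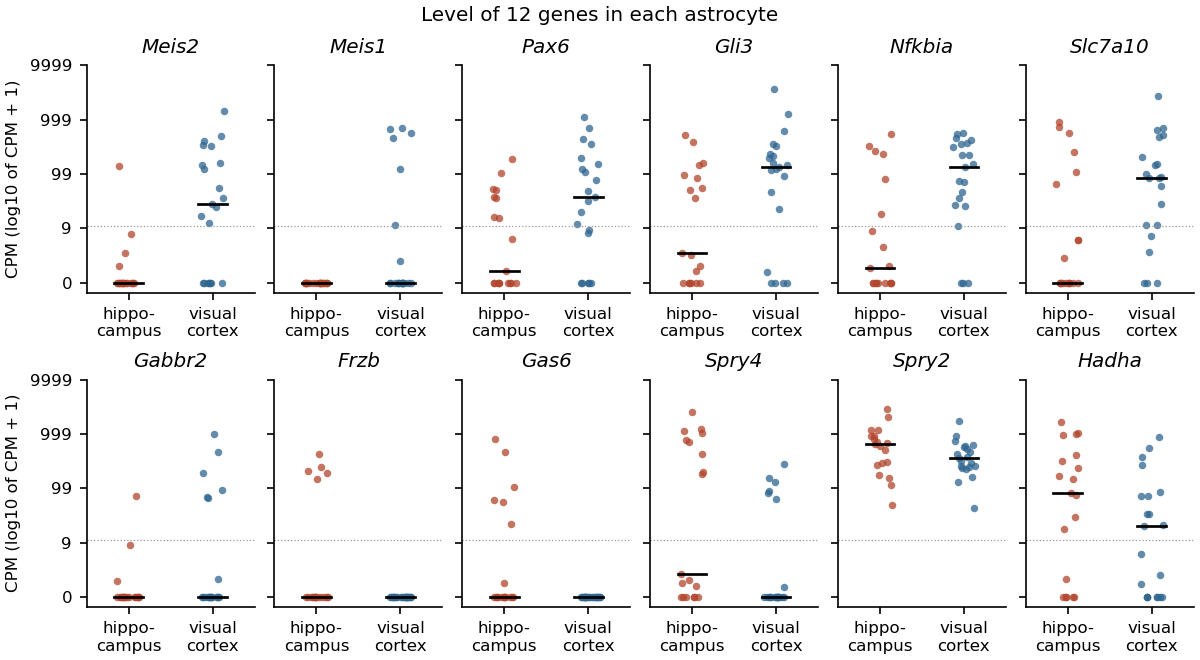
CPM of 12 genes in each astrocyte, on a log10 scale of CPM + 1; each point is 1 cell, bars are medians, the dotted line is 10 CPM, and the 19 hippocampal cells stand left of the 21 visual cortex cells. Meis1 is at 0 in every hippocampal cell and Frzb and Gas6 in every visual cortex cell, while the regions overlap in the other 9 genes.

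The hedgehog pathway signals through the receptor Ptch1, the transducer Smo and the Gli factors, and Gas1, Boc and Cdon are co-receptors. Of 8 measured members 5 were at least 2-fold lower in hippocampal astrocytes and 2 higher, against 32.6% and 26.7% of all genes. The list's median log2 ratio was -1.36 (-1.79 to -1.07), and it was 0.68 among cells with a Y-linked gene. The 2 higher ones were the co-receptors Gas1 and Boc. Boc rested on hippocampal cell 63, which held 432 CPM: its ratio was 1.13 with all cells and -2.20 without that cell. Gli3, mainly a repressor in the cortex, had 0, 2.49 and 515 CPM in the lowest, median and highest hippocampal cell, and 0, 133 and 3714 CPM in the visual cortex. It was at 10 CPM in 9 hippocampal and 16 visual cortex cells, with a ratio of -1.56 (-2.18 to -1.13). Gli2, an activator, had the same number of cells, 5, at 10 CPM in both regions, but the highest hippocampal cell held 82.1 CPM and the highest visual cortex cell 1057 CPM, for a ratio of -3.54. Among cells with a Y-linked gene the Gli2 ratio was 2.62, and none of the 8 such visual cortex cells reached 10 CPM. Ptch1 was at 10 CPM in 5 hippocampal and 8 visual cortex cells, and its ratio of -1.16 ran to -0.56 without visual cortex cell 20 and was 0.76 among cells with Xist.

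Gas1, which helps Sonic hedgehog bind, was the member that was higher in more hippocampal cells. Its lowest, median and highest cells had 0, 52.6 and 1351 CPM in the hippocampus, and 0, 3.06 and 533 CPM in the visual cortex. At 10 CPM stood 13 hippocampal and 9 visual cortex cells, and the log2 ratio was 1.99 (1.66 to 2.71), 2.11 without the 6 cells low in astrocyte markers, 1.93 among cells with Xist and 2.96 among those with a Y-linked gene. Cdon had reads in 6 hippocampal cells, 2 of them at 10 CPM, and in 0 visual cortex cells, but its pooled 7.94 CPM in the hippocampus lay below the level at which a gene was counted as measured.

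Among Wnt genes, ligands and extracellular inhibitors differed by member. Of 16 measured, 4 were at least 2-fold higher in hippocampal astrocytes and 6 lower, against 26.7% and 32.6% of all genes. The median log2 ratio of -0.12 was close to that of all genes. Frzb, a secreted Wnt antagonist, was at 146, 432, 248, 203 and 192 CPM in hippocampal cells 30, 33, 41, 48 and 53, at 0 in the other 14, and at 0 in all 21 visual cortex cells. Against a floor of 3 reads over the visual cortex cells its pooled level was 407-fold higher in the hippocampus. That value covers the counting of reads and not the draw of cells, and 0 of 21 cells allows a share of up to 16.1%. Of those cells 30, 33 and 41 were also among the hippocampal cells with reads of the pericyte gene Rgs5, whose part in Frzb was not tested. Wnt5a, a ligand of the noncanonical branch, was at 10 CPM in 4 hippocampal cells and 1 visual cortex cell (log2 ratio 2.79, 1.86 to 4.38). Its ratio was -2.79 among the cells with Xist, none of which passed 10 CPM in the hippocampus. Wnt7a, a canonical ligand, was at 10 CPM in 2 hippocampal and 5 visual cortex cells (-2.34, -4.01 to -1.56, and 0.88 among cells with a Y-linked gene). Axin2, a feedback target of canonical signalling, reached 53.9 CPM in the highest hippocampal cell and 709 CPM in visual cortex cell 42, and its ratio of -2.42 became 0.36 without that single cell.

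Among FGF and EGF genes 4 of 14 measured members were at least 2-fold higher in hippocampal astrocytes, close to the 26.7% of all genes, and 2 were lower, with a median log2 ratio of -0.15. Spry2, a Sprouty protein induced by receptor tyrosine kinases, was found in all 40 cells. Hippocampal cells held 48.9, 645 and 2829 CPM (lowest, median, highest), and visual cortex cells 42.3, 361 and 1749 CPM. The ranges overlapped widely and the pooled log2 ratio was 1.09 (0.77 without hippocampal cell 9, 1.25 without visual cortex cell 29). Spry4 of the same family reached 2530 CPM in a hippocampal cell and 275 CPM in a visual cortex cell, stood at 10 CPM in 9 and 6 cells, and had a ratio of 3.4 (3.07 to 4.09). Fgf1, a growth factor without a secretion signal, was above 1000 CPM in 4 hippocampal cells, 40, 48, 62 and 63, while its highest visual cortex cell was at 907 CPM and its next at 152 CPM. The number of cells at 10 CPM was nearly the same, 6 and 7, and the ratio was 3.02 (2.38 to 3.72), carried by those 4 cells. The receptor Fgfr3 was at 10 CPM in 15 hippocampal and 19 visual cortex cells, with medians of 629 and 826 CPM and a ratio of -0.75 (-1.01 to -0.31).

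BMP and TGF-beta genes, which favour astrocyte fate and stem cell quiescence, had 6 of 13 measured members at least 2-fold higher in hippocampal astrocytes and 2 lower, with a median log2 ratio of 0.92 (0.64 to 1.12). All genes had shares of 26.7% higher and 32.6% lower. Without the 6 cells low in astrocyte markers 3 of 12 measured members of the BMP list were higher and 2 lower, and its median was 0.54. Id1, a target of BMP signalling, was at 10 CPM in 8 hippocampal and 5 visual cortex cells, with a ratio of 1.00 (0.36 to 1.45). The receptor Bmpr2 was at 10 CPM in 5 hippocampal and 3 visual cortex cells (2.42, 1.37 to 3.35). The transducer Smad1 was at 10 CPM in 5 cells of each region and had a pooled ratio of -2.28 (-2.95 to -1.63), but a mean difference of log2 levels over cells of 0.03. Stem cell and radial glial genes were at least 2-fold higher for 6 of 13 measured members and lower for 1, with a median of 0.71 (0.62 to 1.23). Among the higher ones were Thbs4, Nes, Lpar1, Tfap2c and Id4, and the lower one was Pax6. Nes was highest in hippocampal cell 53, at 248 CPM, and Lpar1 in cell 25, at 1984 CPM, both low in astrocyte markers. Hopx, a marker of quiescent dentate stem cells that astrocytes share, had a ratio of 0.71 and was at 10 CPM in 9 hippocampal and 7 visual cortex cells. Without the 6 cells low in astrocyte markers 3 of 11 were higher and 1 lower, and the median was 0.62. Cell cycle genes could not be compared in this way: 15 of 24 were at least 2-fold lower in the hippocampus and the median was -1.34, but it was 1.61 without visual cortex cell 4 and -5.62 without hippocampal cell 53, the cells that carried most of these transcripts.

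**Figure D4:**
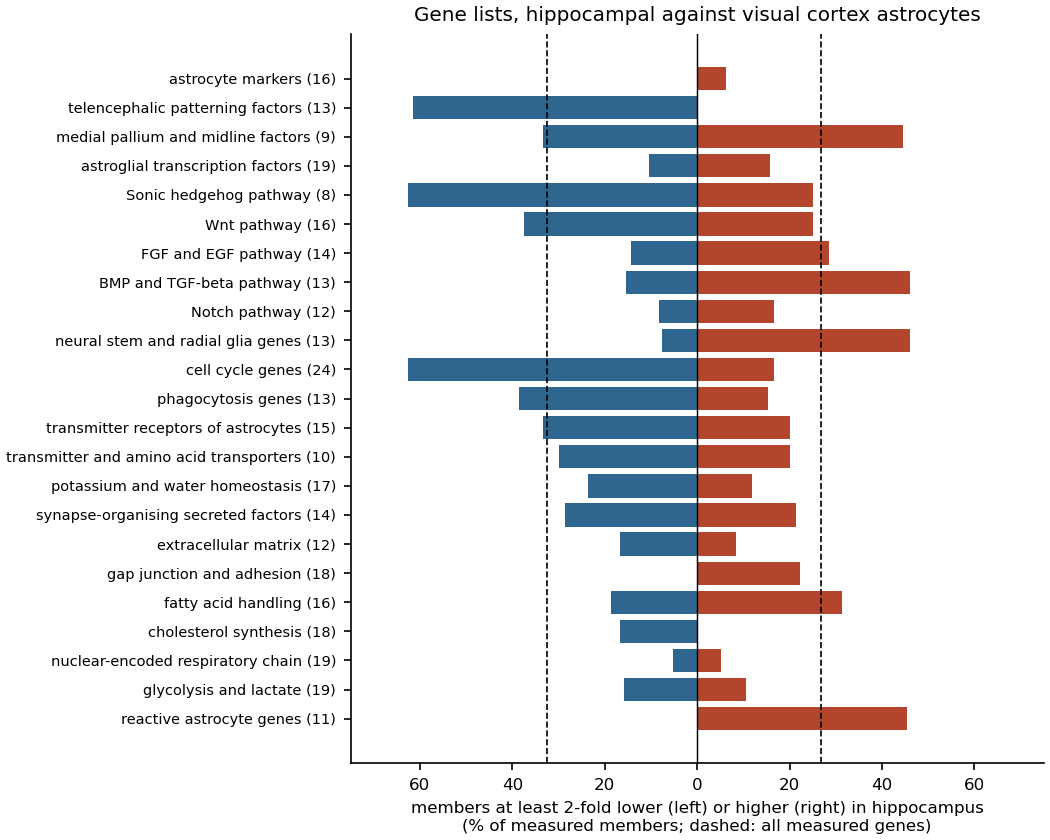
Percent of the measured members of each gene list that were at least 2-fold lower in hippocampal astrocytes (bars to the left) or at least 2-fold higher (bars to the right), with the number measured in brackets; dashed lines are the shares among all 9069 genes, 32.6% and 26.7%. Telencephalic patterning, hedgehog and cell cycle genes extend farthest to the left, and BMP, stem cell, reactive and medial pallium genes farthest to the right.

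Of 13 phagocytosis genes, all measured, 2 were at least 2-fold higher in hippocampal astrocytes and 5 lower, with a median log2 ratio of -0.67 (-1.01 to -0.25). Among all genes 26.7% were higher and 32.6% lower. Without the 3 cells with markers of another class, 3 of 12 measured phagocytosis genes were higher and 3 lower, and the median was -0.19. Gas6 and Pros1 bind phosphatidylserine on debris and activate the receptor Mertk, and Gas6 also activates Axl. Gas6 was at 60.6, 799.5, 460, 54, 104 and 21.3 CPM in hippocampal cells 24, 25, 30, 42, 49 and 63. It had no read in any visual cortex cell. Against a floor of 3 reads over the visual cortex its pooled level was 478-fold higher, which covers the counting of reads and not the draw of cells. Pros1 was at 10 CPM in 3 hippocampal cells, the highest being cell 53 at 257 CPM, and had no read in any visual cortex cell. The highest Gas6 value was that of cell 25, the cell with ependymal markers, and 5 of the 6 cells at 10 CPM remained without the cells low in astrocyte markers, against 1 of 3 for Pros1. Mfge8, another bridging protein, was present in nearly every cell, at a median of 1630 CPM in hippocampal and 3315 CPM in visual cortex cells. Mertk reached 10 CPM in 9 hippocampal and 17 visual cortex cells, but its pooled log2 ratio was 0.40 (-0.32 to 0.89), with highest cells of 2288 and 3967 CPM. Axl reached 10 CPM in 8 hippocampal and 6 visual cortex cells, up to 538 and 2199 CPM. Its pooled ratio was -1.50 (-1.95 to -0.57), but it was 0.67 as a difference of mean log2 levels and 3.4 among cells with a Y-linked gene. Lrp1, a scavenger and lipoprotein receptor, had medians of 14.3 CPM in hippocampal and 140.4 CPM in visual cortex cells and a ratio of -1.33 (-2.09 to -0.85). Elmo1, the gene of the list with the lowest ratio, had its visual cortex reads in cell 24, the cell with microglial markers.

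Among the receptors by which astrocytes sense transmitters, 3 of 15 measured genes were at least 2-fold higher in the hippocampus and 5 lower. Their median log2 ratio was -0.34. Over all genes 26.7% were higher and 32.6% lower, so the share of lower receptors was close to that of all genes. Gabbr2, a subunit of the metabotropic GABA-B receptor, was at 70.4 CPM in hippocampal cell 63 and under 10 CPM in the other 18. In the visual cortex it was at 65.7 to 977 CPM in 6 cells and under 10 CPM in the other 15. The ratio was -4.39 (-5.91 to -3.18), and 13 of 16 thalamic astrocytes were at 10 CPM or more. Adora1, an inhibitory adenosine receptor, reached 30.3 CPM in the highest hippocampal cell and 295 CPM in the highest visual cortex cell, with 2 and 5 cells at 10 CPM and a ratio of -3.76 (-4.54 to -2.63). Gria1, an AMPA receptor subunit, was at 18.9, 313 and 218.5 CPM in hippocampal cells 30, 33 and 53 and had no read in any visual cortex cell. The glutamate receptor Grm5, known in young astrocytes, was at 10 CPM in 4 hippocampal and 3 visual cortex cells, up to 676 and 98.6 CPM, and had a ratio of 3.03 (2.40 to 4.23). Grm3, the main metabotropic glutamate receptor of mature astrocytes, had pooled levels of 919.8 CPM in the hippocampus and 879.7 CPM in the visual cortex, a ratio of 0.06 (-0.21 to 0.27), and 14 hippocampal and 20 visual cortex cells were at 10 CPM.

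Of 10 measured transporters of transmitters and amino acids 2 were at least 2-fold higher in the hippocampus and 3 lower. Their median log2 ratio was -0.45. The shares over all genes were 26.7% higher and 32.6% lower. Without the 3 cells with markers of another class, 3 of 11 measured transporters were higher and 4 lower, and the median was 0.03. Slc7a10, a carrier of small neutral amino acids including D-serine, had 0, 0 and 912 CPM in the lowest, median and highest hippocampal cell, and 0, 85.2 and 2692 CPM in the visual cortex. It reached 10 CPM in 6 of 19 hippocampal and 16 of 21 visual cortex cells, while the pooled log2 ratio was -0.59 (-1.40 to -0.01). The value of -1.40 was without hippocampal cell 9, its highest cell there. Slc7a11, the cystine-glutamate exchanger, was at 10 CPM in 9 hippocampal and 16 visual cortex cells, with a ratio of -1.18 (-1.62 to -0.47). Slc12a2, a cotransporter of sodium, potassium and chloride, went the other way, at 10 CPM in 6 hippocampal and 2 visual cortex cells with a ratio of 4.39 (3.22 to 5.36). Slc1a3, the glutamate transporter that marks astrocytes, was in every cell at medians of 14531 CPM in the hippocampus and 14353 CPM in the visual cortex, and its ratio was 0.04 (-0.08 to 0.12). Of 17 potassium and water genes 2 were at least 2-fold higher and 4 lower. Hepacam, an adhesion protein that places the Mlc1 complex at astrocyte junctions, had medians of 18.9 CPM in hippocampal and 79.7 CPM in visual cortex cells and a ratio of -1.22 (-1.66 to -0.66).

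Matrix and adhesion genes were mostly within 2-fold. Of 12 measured matrix genes 1 was at least 2-fold higher in hippocampal astrocytes and 2 were lower. Vcan, a large chondroitin sulphate proteoglycan, reached 639 CPM in the highest hippocampal cell and 5299 CPM in the highest visual cortex cell (log2 ratio -2.35, -2.81 to -1.77), with 6 and 8 cells at 10 CPM. Timp3, an inhibitor of matrix proteases, had medians of 73.8 CPM in hippocampal and 474 CPM in visual cortex cells and a ratio of -1.19 (-1.44 to -0.87). Of 18 adhesion genes 4 were higher and 0 lower. Cdh2, or N-cadherin, was at 10 CPM in 13 cells of each region with a ratio of 1.16, which was 0.35 without hippocampal cell 37.

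Of 16 fatty acid genes 5 were at least 2-fold higher in hippocampal astrocytes and 3 lower, with a median log2 ratio of 0.17. Among all genes the shares were 26.7% higher and 32.6% lower. Without the 6 cells low in astrocyte markers 3 of the 16 were higher and 3 lower, and the median was 0.10. Hadha and Hadhb encode the subunits of the trifunctional protein, which carries out the last steps of long-chain beta-oxidation. Hadha had 0, 79.6 and 1639 CPM in the lowest, median and highest hippocampal cell and 0, 19.1 and 874 CPM in the visual cortex cells, with 13 and 11 cells at 10 CPM and a log2 ratio of 1.86 (1.35 to 2.32). Hadhb had 0, 93.0 and 1521 CPM in the hippocampus and 0, 17.3 and 878 CPM in the visual cortex, with a ratio of 1.03 (0.73 to 1.36). In both genes the ranges overlapped and the median hippocampal cell was the higher. Among cells with Xist the ratios were -0.33 for Hadha and 0.54 for Hadhb. Acadm, the medium-chain dehydrogenase, was at 10 CPM in 11 hippocampal and 8 visual cortex cells, with a ratio of 1.26 (0.51 to 3.64), which was -0.57 among cells with Xist. Other beta-oxidation enzymes were within 2-fold, with ratios of 0.65 for Acadl, 0.33 for Acadvl and -0.34 for Acaa2. The carnitine palmitoyltransferases had negative ratios. Cpt1a, which controls entry of long-chain fatty acids, was at 10 CPM in 5 hippocampal and 10 visual cortex cells (-1.55, -2.74 to -1.0), and Cpt2 in 1 and 3 cells (-4.39, -6.10 to -3.44). The Cpt2 ratio was 0.012 among cells with a Y-linked gene.

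Hadha and Hadhb lie head to head, and the sequence between them serves both as upstream region, which is why it is shown. It runs over chr5:30155163-30155247 on GRCm38.p6, plus strand, outside the annotated exons of both genes, and ends 5 bases before the RefSeq start of Hadhb.

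Hadhb: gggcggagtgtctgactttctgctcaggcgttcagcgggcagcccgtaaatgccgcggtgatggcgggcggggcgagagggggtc

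Cholesterol synthesis was close to equal, with 0 of 18 genes at least 2-fold higher in the hippocampus and 3 lower, and a median log2 ratio of -0.24. The exception in share of cells was Nsdhl, a sterol dehydrogenase, with 0, 0.992 and 1361 CPM in the lowest, median and highest hippocampal cell and 0, 167 and 1365 CPM in the visual cortex cells. It was at 10 CPM in 8 hippocampal and 17 visual cortex cells, and its ratio was -1.57 (-2.11 to -1.36). Nuclear genes of the respiratory chain were mostly within 2-fold, with 1 of 19 higher, 1 lower and a median of -0.04. Glycolytic genes had 2 of 19 higher, 3 lower and a median of -0.35. Genes of reactive astrocytes, which respond to injury and inflammation, had 5 of 11 measured members at least 2-fold higher and 0 lower. Their median was 0.89 (0.35 to 1.14), and of all genes 26.7% were higher and 32.6% lower. Without the 6 cells low in astrocyte markers 4 reactive genes were higher, 1 was lower and the median was 0.34. Without the 3 cells with markers of another class 3 were higher, 1 was lower and the median was 0.39.

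Pooled levels weight the cells with most reads of a gene, and the difference of mean log2 levels weights cells equally. The medians of the 2 measures differed in sign for the astrocyte markers (0.04 pooled, -1.24 over cells), fatty acid genes (0.17 and -0.40), glycolysis (-0.35 and 0.29), synapse-organising factors (-0.49 and 0.11), astroglial factors (-0.16 and 0.23), FGF and EGF genes (-0.15 and 0.15), Wnt genes (-0.12 and 0.03) and cholesterol synthesis (-0.24 and 0.01). They had the same sign for the telencephalic factors (-1.31 and -0.49), the hedgehog genes (-1.36 and -0.19), the BMP genes (0.92 and 0.42) and the stem cell genes (0.71 and 0.66). Shares of cells were also compared at equal depth, with every cell thinned to 700000 reads, which kept 19 hippocampal and 16 visual cortex cells. Meis2 was then at 10 CPM in 1 hippocampal and 12 visual cortex cells, Nfkbia in 6 and 15, Slc7a10 in 6 and 10, Gli3 in 9 and 11, and Gas1 in 13 and 8.

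Genes whose difference held with every cell left out were ranked by the difference of mean log2 levels over cells. They had to reach 50 CPM and be found in at least 50% of the cells of the higher region, and to stay 2-fold apart whichever cell was left out, which 55 genes higher in the hippocampus and 91 lower did. Their values describe the choice and support nothing else. Leading the higher genes was Rell1, a membrane protein related to the TNF receptor RELT, with 0, 14.9 and 2486 CPM in the lowest, median and highest hippocampal cell and 0, 0 and 50.9 CPM in the visual cortex. It was at 10 CPM in 11 hippocampal and 2 visual cortex cells, and its log2 ratio of 5.29 was 3.29 without hippocampal cell 9. Pomp, a chaperone of proteasome assembly, followed with 13 hippocampal and 6 visual cortex cells and a ratio of 2.61 (2.27 to 3.14). The chloride and proton exchanger Clcn3 had medians of 620.3 CPM in hippocampal and 5.52 CPM in visual cortex cells and a ratio of 1.51 (1.36 to 1.79). Pfkfb2, which makes an activator of glycolysis, was at 10 CPM in 11 hippocampal and 5 visual cortex cells, with a ratio of 1.93 (1.62 to 2.53). The others were Ints7, Ggnbp2, Zzef1, Cpsf6, B3galt1, Mier1, Reep3 and Ankrd17, with ratios from 1.25 (B3galt1, -0.18 among cells with Xist) to 4.10 (Zzef1, 1.51 without hippocampal cell 9).

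Among the genes lower in hippocampal astrocytes, the zinc finger gene Zfp329 led, at 10 CPM in 5 hippocampal and 14 visual cortex cells, with a ratio of -2.78 (-3.79 to -2.33). Meis2 came next, and Luzp2, a leucine zipper protein, had medians of 1.08 CPM in hippocampal and 351 CPM in visual cortex cells and a ratio of -2.36 (-2.99 to -1.84). Psap, the precursor of the saposins that lysosomes need to degrade sphingolipids, was at 10 CPM in 11 hippocampal and 20 visual cortex cells (-1.79, -2.77 to -1.51). Dlgap1, known as a scaffold of the postsynaptic density in neurons, was at 10 CPM in 9 hippocampal and 18 visual cortex cells (-1.60, -1.89 to -1.08). The others were Vps13d, Eif3h, Clns1a, Tmed5, Nsdhl and AI464131, with ratios from -3.85 (Vps13d) to -1.57 (Nsdhl).

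Nfkbia, the remaining gene of that ranking, encodes the inhibitor that holds NF-kB in the cytoplasm and is itself induced by NF-kB. It had 0, 0.892 and 539 CPM in the lowest, median and highest hippocampal cell, and 0, 132 and 573 CPM in the visual cortex cells. The highest cells were alike, but only 6 of 19 hippocampal cells were at 10 CPM, against 18 of 21 visual cortex cells, and the log2 ratio was -1.54 (-2.0 to -1.31). The ratio was -1.83 without the 6 cells low in astrocyte markers, -1.51 among cells with Xist and -1.85 among cells with a Y-linked gene. In the same sets Nfkbia was at 10 CPM in 7 of 8 hippocampal and 18 of 18 visual cortex microglia and in all 11 endothelial cells. The 250 bases before its RefSeq start, chr12:55492648-55492897 on GRCm38.p6, minus strand, are shown because NF-kB sites there are textbook regulators of this gene. The capitals mark the matches to the NF-kB motif GGGANNNNCC, searched on both strands, 1 on the strand of the gene at position 39 and 1 on the opposite strand at position 222, counted from the first base shown. The same motif was in 17.6% of 32851 upstream windows of that length, so a match describes the sequence and not binding.

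Nfkbia: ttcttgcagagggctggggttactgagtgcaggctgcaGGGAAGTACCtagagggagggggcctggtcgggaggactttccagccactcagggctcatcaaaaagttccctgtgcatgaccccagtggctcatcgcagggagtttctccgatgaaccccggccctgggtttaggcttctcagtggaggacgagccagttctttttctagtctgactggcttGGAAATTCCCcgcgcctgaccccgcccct

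**Figure D5:**
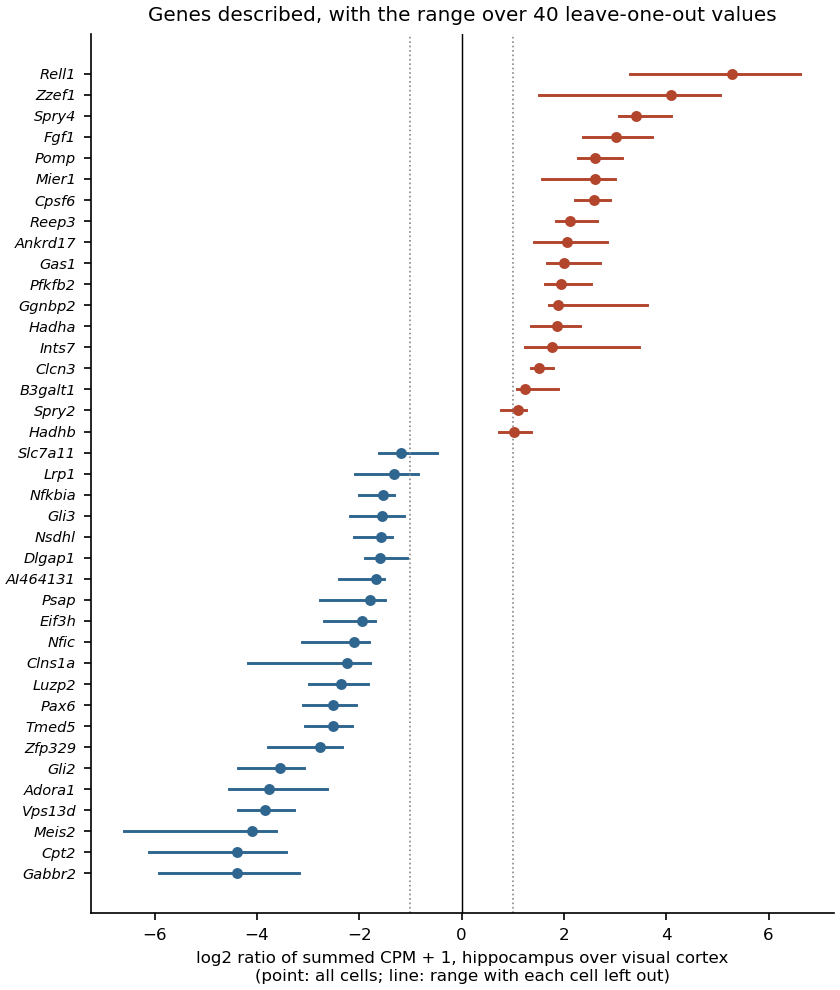
Log2 ratio of pooled CPM + 1, hippocampus over visual cortex, of ranked genes and list members; points are the ratio of all 40 cells, lines the range when each cell is left out in turn, and dotted lines mark 2-fold. Meis2 and Zfp329 stay below -2 and Rell1 above 3 throughout, while Slc7a11, Spry2 and Hadhb come within 2-fold when single cells are left out.

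The same 2 regions could be set side by side in 3 other cell types of day 12, each with fewer cells. Across genes, the log2 ratios of astrocytes had a Pearson correlation of -0.01 with those of microglia (8 hippocampal and 18 visual cortex cells, 5663 genes), 0.05 with those of oligodendrocyte precursors (6 and 4 cells, 6167 genes) and 0.04 with those of endothelial cells (4 and 7 cells, 5330 genes). These values describe genes of cells that share a region's identifier run, and genes are not independent. Meis2 was at 10 CPM in none of the 8 hippocampal and none of the 18 visual cortex microglia.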

How the data were processed

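The authors deposited 1 table of raw read counts per gene for 333 single cells, with 22074 gene names in use. Per the submitters' processing notes, reads were processed with STAR and HTSeq 0.6.0 on mm10; their annotation, strand setting and other parameters are not stated there. Reads of overlapping or antisense genes therefore cannot be told apart. From the deposited counts, CPM (counts scaled to a total of 1000000) were computed per cell and per region; regional values use reads summed over cells. The log2 ratio is hippocampus over visual cortex with 1 CPM added to each. Genes at 10 CPM or more in either region were measured, and 2-fold was the threshold. Each arm is 1 sample, so no test was run. Polymerase chain reaction copies were not told apart from molecules, since the labels name no molecular identifiers, and intervals cover counting error only.

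The ranked genes had 50 CPM in the higher region, 10 CPM in 50% of its cells, and at least 2-fold difference with any cell left out. The first 12 per direction were named, without ribosomal protein genes, predicted genes, Rik clones and LOC entries. Members of lists were named for their roles or as the extremes of a list, some of them after their values were seen. Of 667 list genes in 48 lists 8 were not matched. Values of some list members are not reported here. The members and lists were chosen with earlier results of these data known. Promoter sequences come from RefSeq (GRCm38.p6), cleared of annotated exons. Scripts were tested on simulated data. Alternatives were scaling (edgeR 4.0.16 TMM, DESeq2 1.42.0 median of ratios, R 4.3.3), averaging, pseudocount, minimum level, depth and cells left out. Python 3.11.15, numpy 2.4.6, pandas 2.3.3, scipy 1.17.1 and matplotlib 3.10.9 were used.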

Additional observations from a re-analysis of the deposited data

How the results depend on the processing

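Among all measured genes, 2425 were at least 2-fold higher and 2959 lower. These counts were 1073 and 1088 when log2 levels were averaged over cells, and 1149 and 1551 with a minimum of 50 CPM. With single cells left out they ran from 2232 to 2599 higher and from 2842 to 3096 lower. The median log2 ratio of telencephalic factors was 0.16 among cells with Xist, that of hedgehog genes 0.68 among cells with a Y-linked gene, and that of cell cycle genes 3.95 among cells with a Y-linked gene. For cell cycle genes, leaving out single cells gave -5.62 to 1.61, 1.61 being without visual cortex cell 4. Among cells with Xist the ratio was -0.57 for Acadm, -0.18 for B3galt1, -0.33 for Hadha, 0.76 for Ptch1, -2.79 for Wnt5a and -4.03 for Boc. Among cells with a Y-linked gene it was 3.4 for Axl, 0.012 for Cpt2, -0.17 for Dbx2, 2.62 for Gli2 and 0.88 for Wnt7a. Averaged over cells it was 0.67 for Axl, 0.031 for Smad1 and -0.0083 for Boc. For Axin2, leaving out single cells gave -3.75 to 0.36, 0.36 being without visual cortex cell 42, and for Boc -2.20 to 2.97, -2.20 being without hippocampal cell 63. The cause was not tested. Splits by Xist or Y-linked genes at 10 CPM and the omission of the 6 cells low in astrocyte markers were chosen after seeing the data.

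Of 65 described genes past 2-fold, 61 stayed past it with TMM scaling, 61 with median-of-ratios scaling, 52 averaged over cells, 58 at equal depth, 60 without the 6 cells, 51 among cells with Xist and 50 among cells with a Y-linked gene. The 65 include the ranked genes. Those were picked for a large difference of mean log2 levels and for staying 2-fold apart with any cell left out. Their staying past 2-fold when averaged over cells or with cells left out was thus favoured in advance, and the counts do not measure robustness. Median-of-ratios and TMM scaling gave 2730 and 2716 genes higher and 2652 and 2658 lower. No paired analysis was possible because no label pairs cells across regions. With 19 and 21 cells, a gene found in a few cells can differ in pooled level through 1 cell.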
